A study of Mus musculus with 18 samples.

Results

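Chemokines and acute-phase secreted proteins are the signals by which a fibroblast calls leukocytes and marks injury. The 10 genes described here were chosen by name with attention to their levels 12 h after an exchange of serum: the chemokines Cxcl10, Ccl5, Ccl2, Ccl7, Cxcl1 and Cxcl5, the cytokine Il6, and the secreted acute-phase genes Ptx3, Lcn2 and Saa3. They are 10 of the 55487 genes in the count table, and each was found on 1 row. The study measured mRNA in wild-type mouse embryonic fibroblasts (MEFs, a cultured line) that grew in medium with different batches of fetal bovine serum (FBS). Scm is complete medium with S-FBS, the serum linked to sensitivity to ferroptosis, a death driven by iron and lipid peroxidation, and Rcm is complete medium with R-FBS, the serum linked to resistance. The 6 groups, of 3 libraries each, were cells held in Scm, cells held in Rcm, cells taken out of Scm and given Rcm (S-Rcm, sampled at 12 h and at 24 h), and cells taken out of Rcm and given Scm (R-Scm, sampled at the same times). No group received fresh medium of its own kind, so a change of medium and a change of serum cannot be told apart, and the serum batches allow 1 contrast only. The study's methods call cell culture experiments independent replicates in general. The labels do not say whether the 3 libraries of a group came from separate cultures, so p-values measure the spread between these libraries, which may be technical.

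Chemokines are small secreted proteins that draw leukocytes along a gradient. Cxcl10 and its relatives attract T cells through the receptor Cxcr3, Ccl2 and Ccl7 attract monocytes through Ccr2, Ccl5 attracts T cells and monocytes, and Cxcl1 and Cxcl5 attract neutrophils through Cxcr2. Their genes are known targets of NF-kB, the factor switched on by IL-1, TNF and Toll-like receptors, and Cxcl10 and Ccl5 are also known targets of interferon. Il6 starts the acute-phase response, in which pentraxins such as Ptx3, the siderophore-binding protein Lcn2 and the serum amyloid Saa3 are released.

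Fibroblast markers were high in every library. The summed level of 8 fibroblast markers lay between 9008 and 12840 CPM (counts scaled to a common library total) in single libraries, while 8 macrophage and leukocyte markers summed to 2.35 to 5.52 CPM, with Adgre1 and Tyrobp at 0 counts in all 18 libraries. The fibroblast sum was lower in R-Scm 12 h, at 9067 to 10140 CPM, than in Rcm, at 11310 to 11800 CPM. It lay at 9801 to 10150 CPM in Scm and at 9008 to 9879 CPM in S-Rcm 12 h, so the lower sum was not particular to R-Scm 12 h. Of the 8 fibroblast markers 5 were at an unadjusted p under 0.05 in R-Scm 12 h against Rcm. Pdgfrb, a receptor for PDGF, was called lower there (log2 fold change -0.72 ± 0.19, edgeR adjusted p = 0.039, called in 3 of 10 alternatives). Without replicate 3 of R-Scm 12 h it was not called (-0.77, edgeR adjusted p = 0.096). Thy1, another of the 8 markers, went the other way against Scm. It was called higher in R-Scm 12 h (log2 fold change 0.85) and in S-Rcm 12 h (0.71), each in 10 of 10 alternatives. The leukocyte sum was highest in R-Scm 12 h, at 3.56 to 5.52 CPM against 2.50 to 3.30 CPM in Scm, and most of it was Cd68, which reached 4.91 CPM there. Endothelial markers summed to at most 3.25 CPM and epithelial markers to at most 1.47 CPM, both in R-Scm 12 h. The endothelial gene Kdr was called higher there than in Scm (log2 fold change 3.03, called in 2 of 9 alternatives). Without replicate 3 of R-Scm 12 h Kdr was not called (2.045, edgeR adjusted p = 0.26). The part of other cells in the results was not tested. In bulk RNA a change in the number of expressing cells and a change in RNA per cell cannot be told apart. Libraries held 14534906 to 20313715 counts, and replicate 3 of R-Scm 12 h stood above the other 2 libraries of its group for many of the genes below, so results that rest on it are given with and without it. The chemokine Cx3cl1 split the libraries across groups. It was at 16.4 to 18.7 CPM in replicate 1 of Scm, Rcm and R-Scm 24 h and in replicate 3 of R-Scm 12 h. In all other libraries it lay at 82.4 to 114 CPM. The labels do not say what these libraries share, and the cause was not tested.

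The members lie in a few places of the genome (GRCm38, GENCODE vM21 gene models). Cxcl5 (chr5:90759360-90761624), Cxcl1 (chr5:90891241-90893115) and Cxcl10 (chr5:92346638-92348889, minus strand) share chromosome 5 with Il6 (chr5:30013114-30019981). Ccl2 (chr11:82035571-82037453) and Ccl7 (chr11:82045712-82047525) are neighbours, and Ccl5 (chr11:83525778-83530518, minus strand) lies on the same chromosome. Ptx3 is at chr3:66219910-66225805, Lcn2 at chr2:32384633-32388252 and Saa3 at chr7:46711998-46715700. Counting by strand is not stated, and 3 members overlap a gene on the other strand: Gm17268 over Ccl2 had 0 counts, Art3 over Cxcl10 at most 0.137 CPM, and Veph1 over Ptx3 at most 1.19 CPM, all far below the member.

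Promoter sequence from RefSeq (build GRCm38.p6) was given for 6 of the 10 members: Cxcl10, Cxcl1, Il6, Ptx3, Lcn2 and Saa3. Each runs from 250 bases before the RefSeq gene start to 50 bases after it. That start differs from the start of the GENCODE gene model for Cxcl1, Ptx3, Lcn2 and Saa3. Cxcl10, Cxcl1 and Ptx3 are printed because they were the members with an entry that were called in both exchanges at 12 h and between the steady media. They read 5′ to 3′ on the strand of the gene, with capitals marking matches to the NF-kB consensus, the interferon-stimulated response element (ISRE, GAAANNGAA) and AP-1 (TGANTCA), searched on both strands.
Cxcl10 (chr5:92348840-92349139, minus strand): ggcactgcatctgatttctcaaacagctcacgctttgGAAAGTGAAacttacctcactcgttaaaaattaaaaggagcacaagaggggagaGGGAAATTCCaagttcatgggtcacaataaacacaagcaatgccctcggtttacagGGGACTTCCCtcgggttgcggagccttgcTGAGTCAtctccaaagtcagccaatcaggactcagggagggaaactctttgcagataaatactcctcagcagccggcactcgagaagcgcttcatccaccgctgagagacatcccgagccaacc
Cxcl1 (chr5:90890995-90891294, plus strand): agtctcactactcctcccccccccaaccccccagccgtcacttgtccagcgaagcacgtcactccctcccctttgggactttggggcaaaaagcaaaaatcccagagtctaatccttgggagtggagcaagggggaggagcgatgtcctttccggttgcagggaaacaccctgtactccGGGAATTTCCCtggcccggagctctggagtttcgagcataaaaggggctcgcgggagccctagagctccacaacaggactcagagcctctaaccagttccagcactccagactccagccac
Ptx3 (chr3:66219637-66219936, plus strand): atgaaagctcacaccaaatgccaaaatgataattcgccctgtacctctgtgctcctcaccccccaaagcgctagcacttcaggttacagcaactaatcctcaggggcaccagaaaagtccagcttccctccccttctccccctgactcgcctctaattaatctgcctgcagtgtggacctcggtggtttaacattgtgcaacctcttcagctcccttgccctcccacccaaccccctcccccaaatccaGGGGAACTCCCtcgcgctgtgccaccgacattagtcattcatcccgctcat

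The NF-kB consensus was found in 4 of these 6 promoters, those of Cxcl10, Cxcl1, Il6 and Ptx3, and in 4.51% of all 32851 promoters of the same length. Cxcl10 held it at -159 to -150 and at -103 to -94, counted from the RefSeq start. Cxcl1 held it on both strands at overlapping places from -71 to -61, and Il6 at -44 to -35. Ptx3 held it on both strands across its RefSeq start, from -1 to 10, which is upstream of its GENCODE gene model. An ISRE match was found in Cxcl10 at -213 to -205 and in Saa3 at -125 to -117, against 8.56% of all promoters. The C/EBP motif (TTGCNNAA) was found in Il6, Ptx3, Lcn2 and Saa3, against 10.8%, and AP-1 in Cxcl10 and Il6, against 7.81%. A match describes the letters only, and no binding was measured.

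In absolute terms, the monocyte chemokines and Ptx3 dominated. Per kilobase of annotated exon (RPKM), mean levels in Scm were 100.1 for Ccl2, 49.5 for Ccl7 and 34.9 for Ptx3, while Cxcl10 was at 2.44, Cxcl1 at 2.08, Ccl5 at 0.735 and Cxcl5 at 0.112. In R-Scm 12 h, where each of the 10 members had its highest group mean, the order began the same way, with Ccl2 at 225 RPKM, Ccl7 at 154, Ptx3 at 149 and Cxcl10 at 27.7. Il6, Lcn2 and Saa3 stayed below 0.32 RPKM in every group mean. Together the 10 members took 258 ± 18 CPM in Scm, 390 ± 22.5 in Rcm, 458 ± 4.27 in S-Rcm 12 h, 345 ± 16.5 in S-Rcm 24 h, 867 ± 285 in R-Scm 12 h and, by the later time, 380 ± 21.3 in R-Scm 24 h (mean ± SD, n = 3). The libraries of R-Scm 12 h did not overlap those of the next group in the order of means for 8 of the 10 members, and overlapped them for Lcn2 and Saa3. Scm had the lowest mean for 9 of the 10, and Lcn2 was at 0 counts in both Scm and S-Rcm 24 h.

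**Figure D1:**
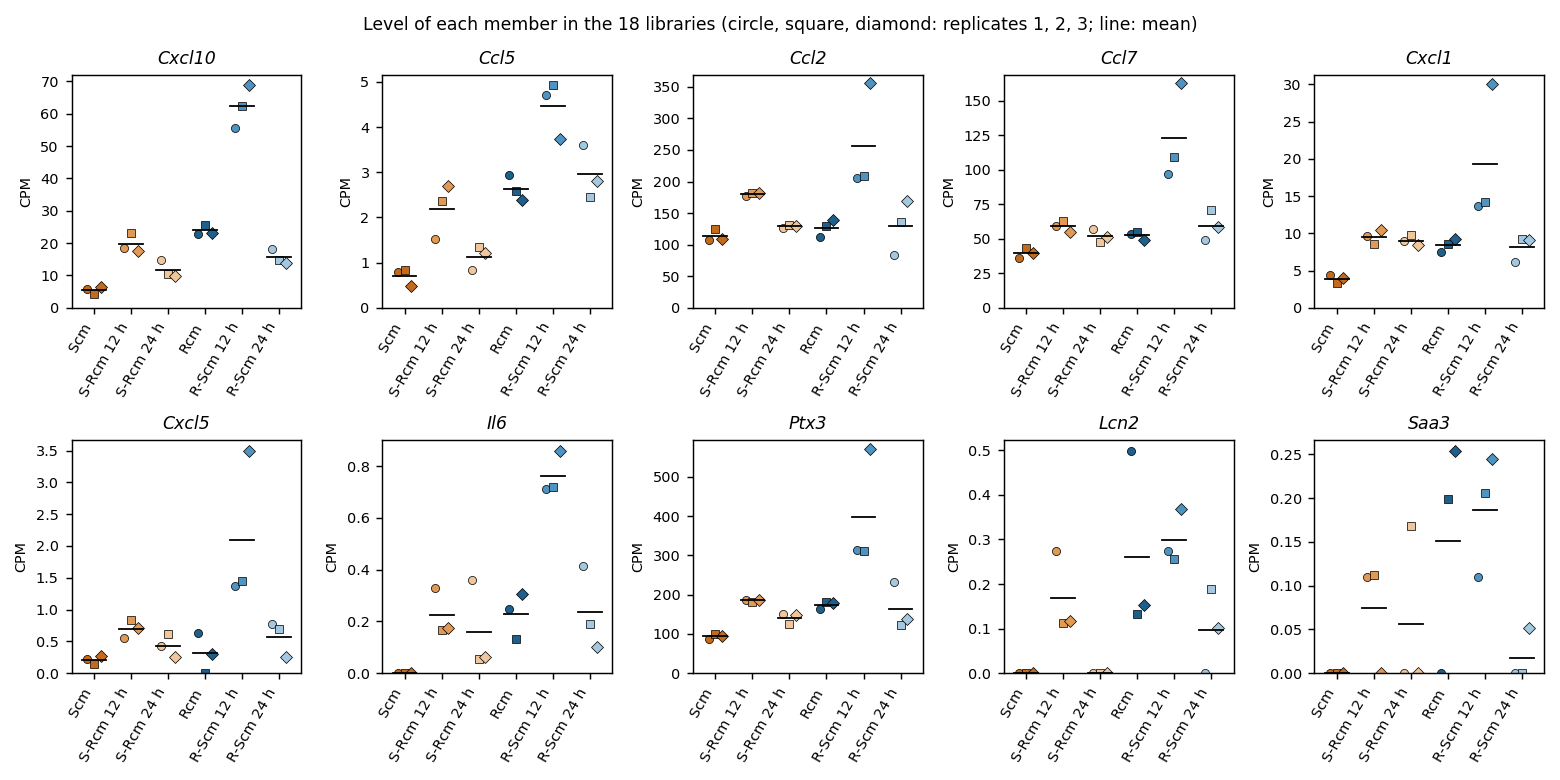
Level of each member (CPM, linear axes from 0) in the 18 libraries, by group; symbols are replicates and lines are group means. Every member has its highest mean in R-Scm 12 h, and replicate 3 of that group is the highest of its 3 libraries for 9 of the 10 members.

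The first comparison asks how MEFs that were kept in R-FBS differ from those kept in S-FBS. Among the members with counts in every Scm library, the interferon-linked chemokines stood furthest apart. Cxcl10 was at 5.72, 4.30 and 6.46 CPM in the Scm libraries and at 22.8, 25.8 and 23.2 CPM in the Rcm libraries. The groups did not overlap, and Cxcl10 was 4.34-fold higher in Rcm (log2 fold change 2.12 ± 0.19 SE, adjusted p = 8.82e-06, edgeR quasi-likelihood test, Benjamini-Hochberg over 15381 genes). Ccl5 was at 0.802, 0.832 and 0.481 CPM in Scm and at 2.93, 2.60 and 2.39 CPM in Rcm, a 3.69-fold difference without overlap (log2 fold change 1.88 ± 0.29, adjusted p = 0.0013).

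Cxcl1 and Ptx3 were also higher in Rcm, but less firmly. Cxcl1 was at 4.39, 3.33 and 3.99 CPM in Scm and at 7.55, 8.52 and 9.25 CPM in Rcm (log2 fold change 1.11 ± 0.26, edgeR adjusted p = 0.031). Ptx3 was at 87.2, 100.2 and 93.5 CPM in Scm and at 163.7, 181.8 and 177.8 CPM in Rcm (log2 fold change 0.90 ± 0.23, edgeR adjusted p = 0.042). Neither gene overlapped between the groups, yet both missed the threshold when any 1 of the 6 libraries was left out, whereas Cxcl10 and Ccl5 kept their call in all 6 such fits. Over 10 alternatives the adjusted p ran from 0.0045 to 0.14 for Cxcl1 and from 0.0050 to 0.16 for Ptx3.

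The monocyte chemokines stood closer together in the steady media. Ccl2 was at 107, 124.9 and 109 CPM in Scm and at 112, 129.9 and 138 CPM in Rcm, which overlap (log2 fold change 0.15 ± 0.22, edgeR adjusted p = 0.75). Ccl7, its neighbour, was at 35.8, 43.3 and 39.9 CPM in Scm and at 53.8, 55 and 49.2 CPM in Rcm (log2 fold change 0.41 ± 0.16, edgeR adjusted p = 0.23). Cxcl5 had 4, 2 and 4 counts in Scm and 10, 0 and 6 in Rcm, too few to show a difference (log2 fold change 0.56 ± 0.81, edgeR adjusted p = 0.76).

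The remaining members were at the limit of detection. Il6, Lcn2 and Saa3 had 0 counts in each of the 3 Scm libraries. In the Rcm libraries, Il6 had 4, 2 and 6 counts, Lcn2 had 8, 2 and 3, and Saa3 had 0, 3 and 5. Against a floor of 3 counts over the Scm group, Il6 was 3.77-fold higher in Rcm, Lcn2 4.08-fold and Saa3 2.51-fold. The floor covers counting error in Scm only. The small counts in Rcm were taken as exact, so these values are not firm lower bounds. Lcn2 and Saa3 did not pass the filter on low counts and were not tested, and Il6 did not pass the test (edgeR adjusted p = 0.058).

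In all, 4 of the 8 members tested were called higher in Rcm, where a gene is called if its log2 fold change exceeds 0.58 in size and its adjusted p is under 0.05. Of all genes tested 1.67% were called higher. All libraries of Rcm lay above all of Scm for 6 of the 8, against 12.8% of all genes tested. The median log2 fold change of the 8 was 1.0, beside 0.01 over all genes tested. Both groups are the starting cultures of the 12 h contrasts the members were chosen on, so these counts and shares are a description. Il6, among the 6, passed the filter on low counts through its R-Scm 12 h libraries.

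The exchange of serum is the contrast the members were chosen on, so their values at 12 h are a description and carry no test. When MEFs were moved from Rcm to Scm, each of the 8 members tested was higher at 12 h than in the Rcm culture they came from. Cxcl10 went from the 22.8 to 25.8 CPM of Rcm to 55.7, 62.5 and 68.9 CPM in R-Scm 12 h, 2.61-fold higher (log2 fold change 1.38 ± 0.17). Ptx3, a soluble pattern recognition molecule, was at 315, 309.8 and 570.1 CPM, and its log2 fold change was 1.19 ± 0.23. The Scm libraries were lower than the Rcm libraries for both genes, so the moved cells stood further from the level of cells held in Scm than before the move: Cxcl10 was 11.3-fold and Ptx3 4.25-fold above Scm.

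The monocyte chemokines, which differed little between the steady media, were higher after the move. Ccl2 was at 205, 208 and 356 CPM in R-Scm 12 h, 2.02-fold above Rcm (log2 fold change 1.02 ± 0.22), and Ccl7 at 97.1, 109 and 163 CPM, 2.34-fold above it (log2 fold change 1.22 ± 0.16). The neutrophil chemokines were higher too: Cxcl1 was at 13.6, 14.3 and 29.98 CPM (log2 fold change 1.19 ± 0.25), and Cxcl5 had 25, 28 and 57 counts against 10, 0 and 6 in Rcm (log2 fold change 2.71 ± 0.61). For these 4 genes and for Ptx3, replicate 3 was the library that stood out, at 1.49 to 2.43 times the next one.

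Ccl5 and Il6 showed no such library. Ccl5 was at 4.71, 4.94 and 3.74 CPM in R-Scm 12 h, with replicate 3 the lowest (log2 fold change over Rcm 0.76 ± 0.24). Il6 had 13, 14 and 14 counts, the most of any group, against 4, 2 and 6 in Rcm (log2 fold change 1.67 ± 0.56), and was 12.1-fold above Scm by the same floor. Lcn2 had 5, 5 and 6 counts and Saa3 2, 4 and 4, which overlap the counts in Rcm.

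The counts that follow come from the levels the members were chosen on, so nothing is read from them or from the shares beside them. Of the 8 members tested 6 were called higher in R-Scm 12 h against Rcm (Cxcl10, Ccl2, Ccl7, Cxcl1, Cxcl5 and Ptx3), beside 1.51% of all genes tested. Without replicate 3 of R-Scm 12 h, 4 were called: Ccl7, Cxcl1, Cxcl10 and Ptx3. The libraries did not overlap for any of the 8, beside 11.7% of all genes tested. Against Scm, the medium they had been moved to, all 8 were called higher, with or without replicate 3, beside 3.10% of all genes tested. Il6 reached 10 counts in a library in R-Scm 12 h only, and Lcn2 and Saa3 were not tested, so these counts do not speak for all 10 members.

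The reverse move, from Scm to Rcm, was also followed at 12 h by a level above the starting culture for each tested member. Cxcl10 was at 18.5, 23.3 and 17.7 CPM in S-Rcm 12 h, 3.60-fold above Scm (log2 fold change 1.85 ± 0.18). Ccl5 was at 1.53, 2.35 and 2.69 CPM (log2 fold change 1.62 ± 0.29), Cxcl1 at 9.58, 8.57 and 10.5 CPM (1.29 ± 0.26) and Ptx3 at 186, 182 and 187 CPM (0.98 ± 0.23). These 4 are the members that differed between the steady media, and in S-Rcm 12 h each had a log2 difference from Rcm between -0.27 and 0.18.

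Ccl2 stood above both steady media. It was at 178, 182 and 183 CPM in S-Rcm 12 h, which lies above every Scm library and also above every Rcm library (log2 fold change 0.67 ± 0.22 over Scm and 0.51 ± 0.22 over Rcm). Ccl7 was at 59.5, 62.8 and 55 CPM (log2 fold change 0.58 ± 0.16 over Scm and 0.17 ± 0.16 over Rcm), and its libraries overlapped those of Rcm. Cxcl5 had 10, 15 and 12 counts and Il6 6, 3 and 3, where Il6 was 3.69-fold above Scm by the same floor.

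These counts too describe levels that entered the choice of members, and nothing is read from the shares beside them. Of the 8 members tested 4 were called higher in S-Rcm 12 h against Scm, beside 0.598% of all genes tested, and all 8 lay above Scm in every library, beside 14.4%. Leaving out 1 library lowered the count to 1 or 2: it was 1 without replicate 1 or replicate 3 of Scm or replicate 3 of S-Rcm 12 h, and 2 without any of the other 3 libraries, with Cxcl10 called each time. Against Rcm, 0 of the 8 were called by edgeR and 0 by DESeq2, with 1 at an unadjusted p under 0.05, beside 0.871% of all genes tested called in either direction.

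**Figure D2:**
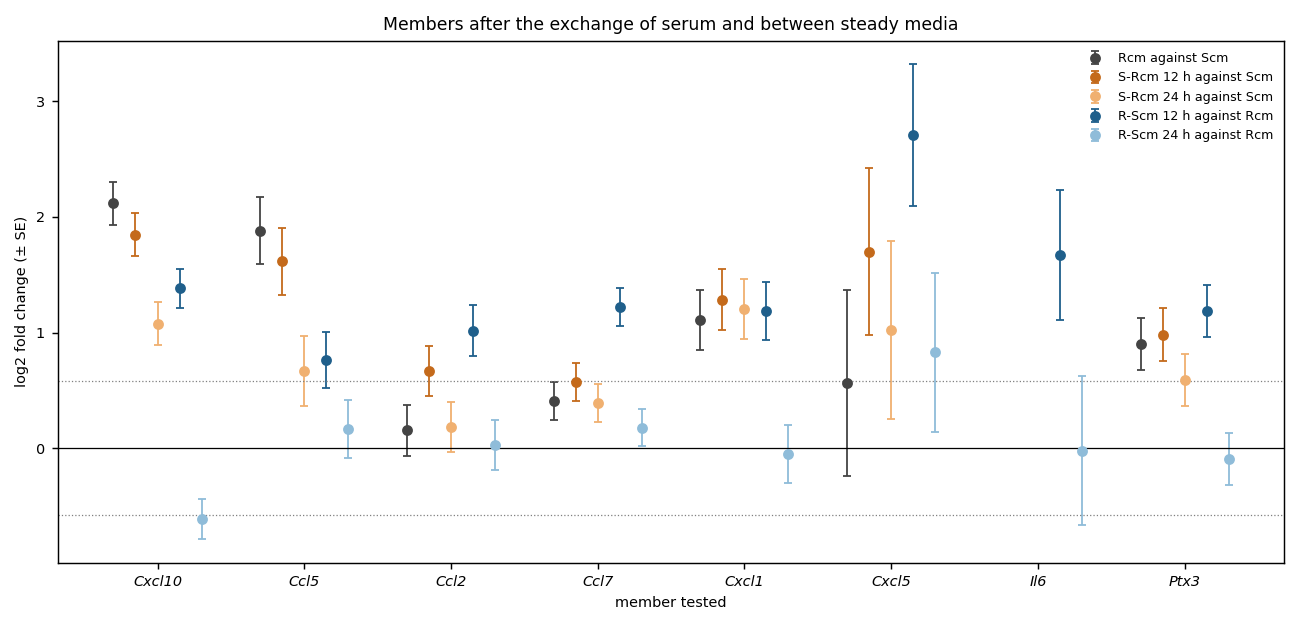
Log2 fold change of the 8 members tested (points, bars are ± SE) in 5 comparisons; dotted lines mark a log2 fold change of 0.58 in either direction. Il6 is not drawn against Scm, where it had 0 counts. The R-Scm 12 h points lie above 0 for every member, and the R-Scm 24 h points lie near or below it except for Cxcl5.

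Did the opposite exchanges differ in size? The effect of each move was set against the other in 1 contrast, R-Scm 12 h over Rcm minus S-Rcm 12 h over Scm. Of the 8 members 0 were called by edgeR and 0 by DESeq2, with 3 at an unadjusted p under 0.05, beside 2.03% of all genes tested. The 3 were Ccl7, Ccl5 and Il6, and the value of Il6 rests on 0 counts in every Scm library. The contrast is built from the libraries on which the members were chosen, so these counts and the values below are a description. Ccl7 had a difference of 0.65 ± 0.23 on the log2 scale, toward the larger rise in R-Scm. Ccl5 leaned the other way, at -0.86 ± 0.38, and Cxcl10 likewise at -0.46 ± 0.25. That no member passed the threshold does not show that both moves act alike.

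**Figure D3:**
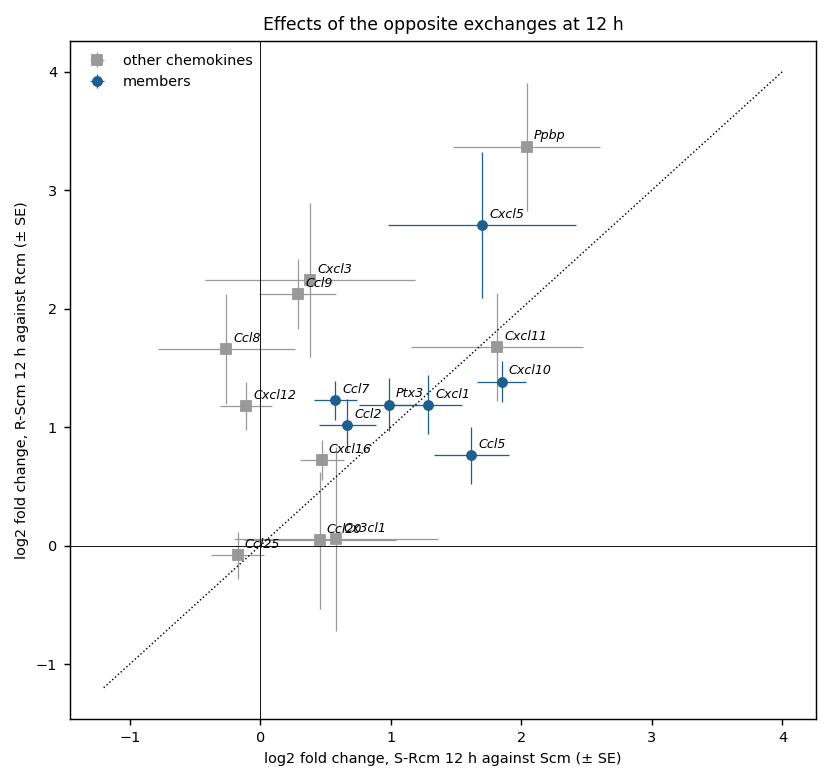
Log2 fold change at 12 h after the move to Scm (vertical axis, over Rcm) against that after the move to Rcm (horizontal axis, over Scm) for 7 members (circles) and 10 other chemokines (squares); bars are ± SE and the dotted line marks equal effects. Ccl9 and Cxcl12, whose differences were called, lie above the line, as do Cxcl3, Ccl8 and Ppbp, whose differences were not called. Ccl5 and Cxcl10 lie below it.

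At 24 h after the move to Scm, the log2 fold changes of the 8 tested members against Rcm lay between -0.61 and 0.83. Cxcl10 was at 18.3, 14.7 and 13.97 CPM in R-Scm 24 h, below every Rcm library and every library of 12 h (log2 fold change from 12 h to 24 h -1.99 ± 0.17). Against Rcm its log2 fold change was -0.61 ± 0.17, which did not pass the edgeR test (adjusted p = 0.14) but passed with DESeq2 (adjusted p = 0.0445) and without replicate 1 of R-Scm 24 h. Over its 10 alternatives the adjusted p ran from 0.034 to 0.47. Ptx3 was at 231, 122 and 138 CPM and Ccl2 at 82.8, 135.5 and 169.8 CPM, with replicate 1 the highest for Ptx3 and the lowest for Ccl2, so that their means of 164 and 129 CPM lay close to those of Rcm (edgeR adjusted p = 0.94 and 0.98). Of the 8 members tested 0 were called by edgeR against Rcm, with 1 at an unadjusted p under 0.05 and 1 called by DESeq2, beside 0.377% of all genes tested. The lack of edgeR calls does not show a return to the levels of Rcm.

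The members were chosen with attention to 12 h, so a lower level at 24 h is given as a description and nothing is read from its counts or shares. From 12 h to 24 h after this move every tested member was lower, in every library, beside 8.43% of all genes tested. Called lower were 5 of the 8 (Cxcl10, Ptx3, Cxcl1, Ccl7 and Ccl2), beside 0.442% of all genes tested. Without replicate 3 of R-Scm 12 h there were 3, Ccl7, Cxcl10 and Ptx3, and without replicate 3 of R-Scm 24 h there were 3 too. The log2 fold changes were -1.28 ± 0.23 for Ptx3, -1.24 ± 0.25 for Cxcl1, -1.05 ± 0.16 for Ccl7 and -0.99 ± 0.22 for Ccl2. Il6 went from 41 counts over the group to 12, Lcn2 from 16 to 5 and Saa3 from 10 to 1.

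At 24 h after the move to Rcm, Cxcl10 was at 14.8, 10.4 and 9.68 CPM in S-Rcm 24 h, still above every Scm library and 2.11-fold higher than Scm (log2 fold change 1.08 ± 0.19, edgeR adjusted p = 0.017). Cxcl1 was at 8.92, 9.72 and 8.42 CPM, close to its 12 h level (log2 fold change over Scm 1.20 ± 0.26, edgeR adjusted p = 0.058). Ptx3 was at 150.3, 125 and 147 CPM (0.59 ± 0.23, edgeR adjusted p = 0.44), Ccl5 at 0.843, 1.34 and 1.20 CPM (0.67 ± 0.30, edgeR adjusted p = 0.59), and Ccl2 at 127, 132 and 130.1 CPM (0.19 ± 0.22, edgeR adjusted p = 0.93).

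Of the 8 members tested 1, Cxcl10, was called higher in S-Rcm 24 h against Scm, beside 0.221% of all genes tested, and 7 lay above Scm in every library, beside 10.6%. The Scm libraries are also the start of the 12 h contrast, so these counts and shares are a description. The call of Cxcl10 was lost without any 1 of the 3 Scm libraries or without replicate 1 of S-Rcm 24 h, where edgeR called 0 members, and over 10 alternatives its adjusted p reached 0.096. Between S-Rcm 12 h and S-Rcm 24 h, 0 members were called by edgeR, with 3 at an unadjusted p under 0.05 and 1 called by DESeq2 (Cxcl10), beside 0.156% of all genes tested in either direction. Whether the fall from 12 h to 24 h differed between the 2 moves was not tested.

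Across the 18 libraries the members with a mean of at least 1 CPM followed each other to different degrees. These correlations share the 6 groups and the same libraries, so they describe the pattern only. Cxcl10 and Ptx3 had a Pearson r of 0.92 (log2 CPM, 18 libraries) and Cxcl1 and Ccl7 0.89, while the neighbouring genes Ccl2 and Ccl7 had 0.85 and Ccl2 and Ccl5 only 0.49. Among all other tested genes with a mean of at least 1 CPM, Cxcl10 was most like Ifit1 (r = 0.93), an interferon-induced gene, and Ccl5 most like Cmpk2 (0.89), Gbp9 (0.88) and Ifih1 (0.88), which are interferon-induced too. Ccl2 was most like Slpi (0.93), a secreted protease inhibitor, and Mmp10 (0.90), and Ccl7 most like Ppbp (0.94), a neutrophil chemokine. Cxcl1 was most like Plk2 (0.92) and Tgfb2 (0.92), and Ptx3 most like Iqgap2 (0.93). The mean pattern of the members was most like Ppbp (0.91), Stx11 (0.91) and Iqgap2 (0.91).

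The other chemokines were read from a list of 29 genes, and 10 of them had enough counts to be tested. In R-Scm 12 h against Rcm 5 were called higher: Ppbp, Ccl9, Cxcl11, Cxcl12 and Cxcl16. Ppbp, the neighbour of Cxcl5 on chromosome 5, was at 2.43, 2.99 and 1.63 CPM in Rcm and at 11.7, 9.42 and 51.3 CPM in R-Scm 12 h (log2 fold change 3.37 ± 0.54, edgeR adjusted p = 0.0024). Without replicate 3 of R-Scm 12 h its log2 fold change was 2.18 (edgeR adjusted p = 0.0010), and 3 genes of the list were called. Cxcl11, like Cxcl10 a ligand of Cxcr3, had a log2 fold change of 1.68 ± 0.45 (edgeR adjusted p = 0.046), called in 4 of 10 alternatives and not without replicate 3 (adjusted p = 0.19, range 0.012 to 0.19). Cxcl3, a neutrophil chemokine, was called in R-Scm 12 h against Scm (log2 fold change 2.51, in 5 of 9 alternatives). Without replicate 3 of R-Scm 12 h it was not called (1.87, edgeR adjusted p = 0.18). Cxcl3 reached 10 counts in a library in R-Scm 12 h and R-Scm 24 h only. In S-Rcm 12 h against Scm 0 of the 10 were called by edgeR, with 3 at an unadjusted p under 0.05 and 1 called by DESeq2. Their median log2 fold change was 0.42 there, beside 1.42 in R-Scm 12 h against Rcm. Ppbp was at 5.64, 7.12 and 6.15 CPM in S-Rcm 12 h, above its 1.23, 1.73 and 1.65 CPM in Scm, so its higher level was not particular to the move to Scm.

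For a pair of these chemokines the exchange effects differed. Ccl9 was at 1.81, 3.26 and 2.29 CPM in Rcm and rose to 7.28, 7.92 and 16.9 CPM in R-Scm 12 h (log2 fold change 2.12 ± 0.30, edgeR adjusted p = 0.00057), and the difference of the exchange effects was 1.84 ± 0.42 (edgeR adjusted p = 0.027). Cxcl12, the ligand of Cxcr4 and a product of stromal cells, was at 66.2, 63.5 and 69.3 CPM in Rcm and at 112, 110.0 and 228 CPM in R-Scm 12 h (log2 fold change 1.18 ± 0.20, edgeR adjusted p = 0.0032), with a difference of 1.29 ± 0.29 (edgeR adjusted p = 0.025). Without replicate 3 of R-Scm 12 h these differences were 1.35 (edgeR adjusted p = 0.041) and 0.86 (edgeR adjusted p = 0.0060). Over 16 alternatives the difference was called in 9 for Ccl9 and in 8 for Cxcl12, with adjusted p up to 0.075 and 0.066, and for both it was lost without any 1 of the 3 Scm libraries or without replicate 1 or 2 of S-Rcm 12 h.

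The interferon list separated the steady media. Of 12 genes 11 were called higher in Rcm than in Scm, with a median log2 fold change of 2.65. Ifit1 was at 4.71, 4.99 and 6.32 CPM in Scm and at 74.4, 82.0 and 43.1 CPM in Rcm (log2 fold change 3.64 ± 0.44, edgeR adjusted p = 0.00038). Rsad2 had a log2 fold change of 3.04 ± 0.60 (edgeR adjusted p = 0.0092) and Ifit3 of 3.33 ± 0.39 (edgeR adjusted p = 0.00020). In R-Scm 12 h against Rcm 0 of the 12 were called by edgeR, with 4 at an unadjusted p under 0.05, 1 called by DESeq2 and a median log2 fold change of 0.48. In S-Rcm 12 h against Scm edgeR called 1, Ifit3 (log2 fold change 1.70 ± 0.38, edgeR adjusted p = 0.041), which was called in 2 of 10 alternatives (adjusted p up to 0.18). There 9 of the 12 were at an unadjusted p under 0.05, DESeq2 called 3, and the median log2 fold change was 1.20. In R-Scm 12 h against Scm 11 of the 12 were called higher. From R-Scm 12 h to R-Scm 24 h, Ifit1, Ifit3, Mx1 and Rsad2 fell, and without replicate 3 of R-Scm 12 h 1 of the 12 was called.

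The NF-kB list held 17 regulators and feedback inhibitors, all tested. At 12 h after either move edgeR called 0 of the 17 against the start. For R-Scm, 8 were at an unadjusted p under 0.05 and DESeq2 called 2, and for S-Rcm these were 2 and 0. Tnfaip3, the feedback inhibitor A20, had a log2 fold change of 1.12 ± 0.37 in R-Scm 12 h against Rcm (edgeR adjusted p = 0.10), and Nfkbia, which encodes the inhibitor IkB alpha, of 0.55 ± 0.17 (edgeR adjusted p = 0.073), beside 0.55 ± 0.17 in S-Rcm 12 h against Scm (edgeR adjusted p = 0.12). Nfkbiz was called in R-Scm 12 h against Scm (log2 fold change 0.92 ± 0.27, edgeR adjusted p = 0.048), but not without replicate 3 of R-Scm 12 h (0.39, edgeR adjusted p = 0.30, range over 10 alternatives 0.0075 to 0.30). Of 15 genes of IL-6 and STAT3 signalling 0 were called in either 12 h move against its start (edgeR, with 4 and 3 at an unadjusted p under 0.05, and 0 by DESeq2). Osmr, a receptor subunit for oncostatin M, was called in R-Scm 12 h against Scm (log2 fold change 1.77 ± 0.39, edgeR adjusted p = 0.013), and missed the threshold in 3 of 10 alternatives, among them without replicate 3 of R-Scm 12 h (adjusted p = 0.075, the highest).

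Other acute-phase genes were few. Of 23 listed, 6 passed the filter. Complement C3 was at 25.7, 25.5 and 25.9 CPM in Scm and at 48.5, 48.3 and 54.2 CPM in Rcm (log2 fold change 0.97 ± 0.13, edgeR adjusted p = 0.00050), and ceruloplasmin (Cp), a copper-carrying ferroxidase, had a log2 fold change of 1.34 ± 0.20 (edgeR adjusted p = 0.0013). In R-Scm 12 h against Rcm, Il1rn, the antagonist of the IL-1 receptor, was called higher (1.85 ± 0.42, edgeR adjusted p = 0.017), and without replicate 3 it missed the threshold (1.64, adjusted p = 0.079, range over 10 alternatives 0.0035 to 0.085). C3 was at 32, 41.2 and 38.5 CPM there, below every Rcm library (-0.43 ± 0.13, edgeR adjusted p = 0.071).

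**Figure D4:**
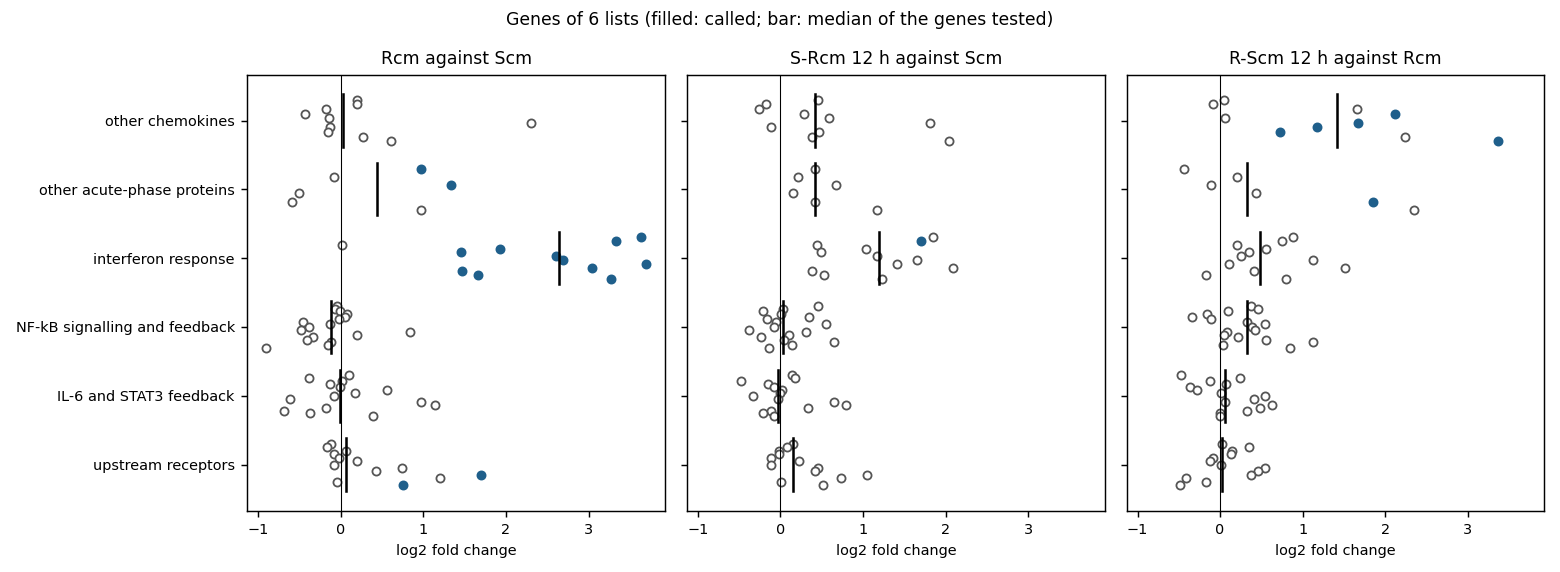
Log2 fold change of each tested gene of 6 lists in 3 comparisons (horizontal axes); filled points were called and bars are list medians. The interferon list is shifted between Rcm and Scm, and the other chemokines are shifted in R-Scm 12 h against Rcm.

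The receptors that sense inducers of the members, 13 in all, were tested in full, and 0 were called in either 12 h move against its start (edgeR, with 4 in either move reaching an unadjusted p below 0.05, and 0 by DESeq2). Between the steady media Tlr3, a sensor of double-stranded RNA, was higher in Rcm (log2 fold change 1.70 ± 0.42, edgeR adjusted p = 0.038), as was the TNF receptor Tnfrsf1b (0.75 ± 0.16, edgeR adjusted p = 0.019), called in 5 and 6 of 10 alternatives. Il1rap, the shared subunit of the IL-1 receptor, was called in R-Scm 12 h against Scm (1.28 ± 0.21, edgeR adjusted p = 0.0013). Of 12 genes listed as receptors for the member proteins, 3 passed the filter. Ccr2 and Cxcr3 had 0 counts in all 18 libraries and Cxcr2 at most 0.164 CPM, while Ackr3, a scavenging chemokine receptor on that list, lay between 113 and 185 CPM. Whether Ackr3 binds any of the members was not tested. Of 16 other cytokines 8 were tested and 0 called in either 12 h move against its start (edgeR, with 1 and 0 at an unadjusted p under 0.05, and 0 by DESeq2), and of 8 factors of mRNA decay 0 were called there (2 and 3 at an unadjusted p under 0.05, and 0 by DESeq2). Zfp36l1 of the last list was called in R-Scm 12 h against Scm (0.85 ± 0.20, edgeR adjusted p = 0.017), and missed the threshold in 3 of 10 alternatives, with the highest adjusted p, 0.092, without replicate 3 of R-Scm 12 h.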

How the data were processed

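Total RNA from MEFs was extracted with the RNeasy mini kit, and 18 paired-end mRNA libraries were sequenced on a NovaSeq instrument. The deposited table holds raw counts per gene for 55487 genes; per the study's methods the authors aligned reads to GRCm38 with HISAT2, and the counting tool, its use of strand and its treatment of reads with several alignments are not given in the sources used here. Columns were matched to samples by their descriptions. The members and gene lists were chosen with earlier results of these data known.

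Counts were analysed in R 4.3.3 with edgeR 4.0.16 (TMM scaling, filterByExpr by group, robust quasi-likelihood fit, group means, all 18 libraries together), which tested 15381 genes and left 40106 out. Calls required an adjusted p (Benjamini-Hochberg) under 0.05 together with a log2 fold change beyond 0.58 in size. CPM are counts scaled by the library total over the genes tested, adjusted by the TMM factor. RPKM divide them by the exon length in the GENCODE vM21 annotation. Log2 CPM used a prior count of 2. Libraries held 14534906 to 20313715 counts. A group at 0 was set to a floor of 3 counts, which covers counting error in that group only, and the counts of the other group were taken as exact. Within groups, replicates differed beyond sampling noise (mean chi-square per gene 9.33 to 41.1 over 18 pairs). Alternatives were RLE scaling, no filter on low counts, a replicate block, DESeq2 1.42.0 and leaving out each library in turn. Named genes were the 10 members, up to 3 genes of each list with the largest change among those called, list genes needed as receptor, regulator or paralog, and the most alike genes by correlation. Cxcl16, Ccl9, Cxcl12, Cx3cl1, Mx1, Kdr and Pdgfrb were named after their values were seen. Ccl19 and Ccl27a, whose symbols are on several rows, were left out of the list counts.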

Additional observations from a re-analysis of the deposited data

Results flagged for a closer look

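The effects of the opposite exchanges at 12 h (R-Scm 12 h over Rcm minus S-Rcm 12 h over Scm) were called as different for 6 listed genes and for 0 of the members. Positive differences, toward the move to Scm, were 1.84 for Ccl9, 1.29 for Cxcl12, 0.87 for Jak2, a kinase of cytokine receptors, and 0.69 for the scavenging receptor Ackr3 (log2 scale, edgeR adjusted p = 0.027, 0.025, 0.018 and 0.031). For Jak2 the mean was 63.8 CPM in Rcm, with R-Scm 12 h at 92.8, and 67.6 CPM in Scm, with S-Rcm 12 h at 53.7. Negative differences were -0.85 for complement C3 and -0.998 for the TNF receptor Tnfrsf1b (edgeR adjusted p = 0.021 and 0.028). Without replicate 3 of R-Scm 12 h all but Ackr3 were still called, and Ackr3 was at 0.64 (edgeR adjusted p = 0.077). Over the 16 alternatives Jak2 was called in 13, Ccl9 and C3 in 9, Cxcl12 in 8, Tnfrsf1b in 7 and Ackr3 in 6.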

How the results depend on the processing

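With RLE scaling and, apart from the counts given next, without a filter, with a replicate block and with DESeq2, the counts of members called stayed within 1.5 times of those reported. Members called in S-Rcm 24 h against Scm went from 1 to 2 without the filter, with the replicate block and with DESeq2. With DESeq2 they went from 0 to 1 for R-Scm 24 h against Rcm and also between S-Rcm 24 h and S-Rcm 12 h. Leaving out 1 library at a time, members called were 2 in all 6 fits of Rcm against Scm, 1 to 2 in S-Rcm 12 h against Scm, 0 to 1 in S-Rcm 24 h against Scm and in R-Scm 24 h against Rcm (1 without replicate 1 of R-Scm 24 h), and 3 to 5 in R-Scm 24 h against R-Scm 12 h. No called fold change of a member reversed. Log2 fold changes that were not called and reversed on leaving out 1 library ranged from -0.31 to 1.09 for Cxcl5 in Rcm against Scm. In R-Scm 24 h against Rcm they ranged from -0.20 to 0.27 for Ccl2, -0.15 to 0.12 for Cxcl1, -0.69 to 0.38 for Il6 and -0.43 to 0.082 for Ptx3. They ranged from -0.43 to 0.22 for Il6 in S-Rcm 12 h against Rcm, and in the difference of exchange effects from -0.56 to 0.10 for Cxcl1 and -0.14 to 0.36 for Ptx3. All genes called by DESeq2 and by edgeR numbered 254 and 132 for S-Rcm 12 h against Scm, 163 and 58 for R-Scm 24 h against Rcm, 136 and 52 for S-Rcm 24 h against Scm, 231 and 119 for R-Scm 24 h against R-Scm 12 h, 86 and 24 for S-Rcm 24 h against S-Rcm 12 h, 301 and 134 for S-Rcm 12 h against Rcm and 471 and 312 for the difference. Leaving out 1 library moved edgeR's counts to between 14 and 501 for R-Scm 24 h against Rcm, 178 and 574 for Rcm against Scm, 275 and 420 for R-Scm 12 h against Rcm, 353 and 770 for R-Scm 12 h against Scm, 57 and 309 for R-Scm 24 h against R-Scm 12 h, 36 and 76 for S-Rcm 12 h against Scm, 27 and 209 for S-Rcm 12 h against Rcm, 8 and 16 for S-Rcm 24 h against S-Rcm 12 h, 6 and 28 for S-Rcm 24 h against Scm, and 176 and 289 for the difference. The cause was not tested. Replicates were matched by the numbers in the sample titles. Deviations of same-numbered libraries correlated at -0.20 to 0.35, no comparison had every pair above 0.1, and 8 of 18 libraries correlated best with their own number. In S-Rcm 24 h, R-Scm 12 h and R-Scm 24 h the count columns carry other replicate numbers than the titles. A pairing by column number was therefore tested neither here nor by the replicate block. The replicate block lost the call of Ptx3 between Rcm and Scm (0.90, adjusted p = 0.054) and for S-Rcm 12 h against Scm (0.98), as did the fit without a filter, and added Cxcl1 in S-Rcm 24 h against Scm (1.21, adjusted p = 0.049) and Il6 in Rcm against Scm, whose fitted value against 0 counts is no bound. DESeq2 gave no adjusted p to 11 member values, which are left out here. Depth limits Il6, Lcn2, Saa3 and Cxcl5, with at most 57 counts in a library.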
